A study of Mus musculus with 16 samples.

Results

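Small leucine-rich proteoglycans are secreted matrix proteins with a core of leucine-rich repeats, and 7 of them were followed here by gene symbol: fibromodulin (Fmod), lumican (Lum), decorin (Dcn), biglycan (Bgn), osteoglycin (Ogn), PRELP (Prelp) and asporin (Aspn). They were chosen by name from the family, with earlier results of these data known, and all 7 were among the 18167 genes measured. The data were RNA-Seq profiles of spinal cord from 16 transgenic mice that overexpressed human profilin 1 (hPFN1) cDNA from a mouse prion promoter vector, MoPrP.Xho, so that the controls also carried a human transgene. The labels describe the mice as male, and each library came from a different mouse. Controls carried wild-type hPFN1 (C57BL/6N-Tg(Prnp-PFN1)850Kiaei/J), and mutant mice, of the strain that ends in 838Kiaei/J and is otherwise named alike but for PFN1*G118V, carried hPFN1 with the G118V change. Mutant young (MY, n = 3) and wild-type young (WY, n = 3) mice were 50 days old, before symptoms. Mutant old mice (MO, n = 5) were at end stage, at 175 to 245 days, and wild-type old mice (WO, n = 5) were 190 to 294 days old. Values are log2(1 + FPKM), where FPKM are fragments normalized to transcript length and library size, and were corrected for library batch by the authors. The read depth behind each value is unknown, since the table holds no counts.

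MO5 went against the label of sex. Its Xist value, the RNA of the inactive X chromosome, was 3.21, whereas the other 15 libraries lay between -0.36 and 0.37, and the Y-linked gene Ddx3y was 1.95 in MO5 and 4.06 to 4.74 in the others. The tests of Fmod and Prelp, and the WO vs. MO test of Bgn, are therefore also given without MO5. Libraries were made in 2 batches, and every young mouse was in batch 1. In batch 2 the WO mice (WO4 and WO5, 294 days) were older than every MO mouse, the oldest of which was 245 days, so the WO vs. MO differences of the members are also given within each batch.

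Members of this family bind collagen fibrils and set their diameter and spacing, and several carry chondroitin, dermatan or keratan sulfate chains. They also bind growth factors such as TGF-beta, and released biglycan and decorin can act on Toll-like receptors. In the central nervous system they are known mainly from the meninges, from fibroblasts around blood vessels and from scar tissue after injury. By sequence they fall into classes: decorin, biglycan and asporin in the first, fibromodulin, lumican and PRELP in the next, and osteoglycin in another.

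At end stage, Fmod and Prelp were up-regulated in the mutant mice, and the other 5 members were not called differentially expressed in any comparison. A gene was called at a false discovery rate (FDR) of 0.05 or less in limma, over all genes, with a fold change of at least 1.5. In MY vs. MO 2 of 7 members were called, both higher in MO, beside 4.9% of all genes called in either direction and 4.11% called with a rise. In WO vs. MO 2 of 7 were called, again both higher in MO, beside 4.6% of all genes in either direction and 4.08% with a rise. These comparisons share the MO mice, so they do not count as independent observations of the same change. The study had already listed Fmod as up-regulated in both, and the members were chosen with earlier results known. The counts of called members are therefore not a measure of an excess in the family. In bulk tissue, more cells of a type cannot be told apart from more RNA per cell.

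**Figure D1:**
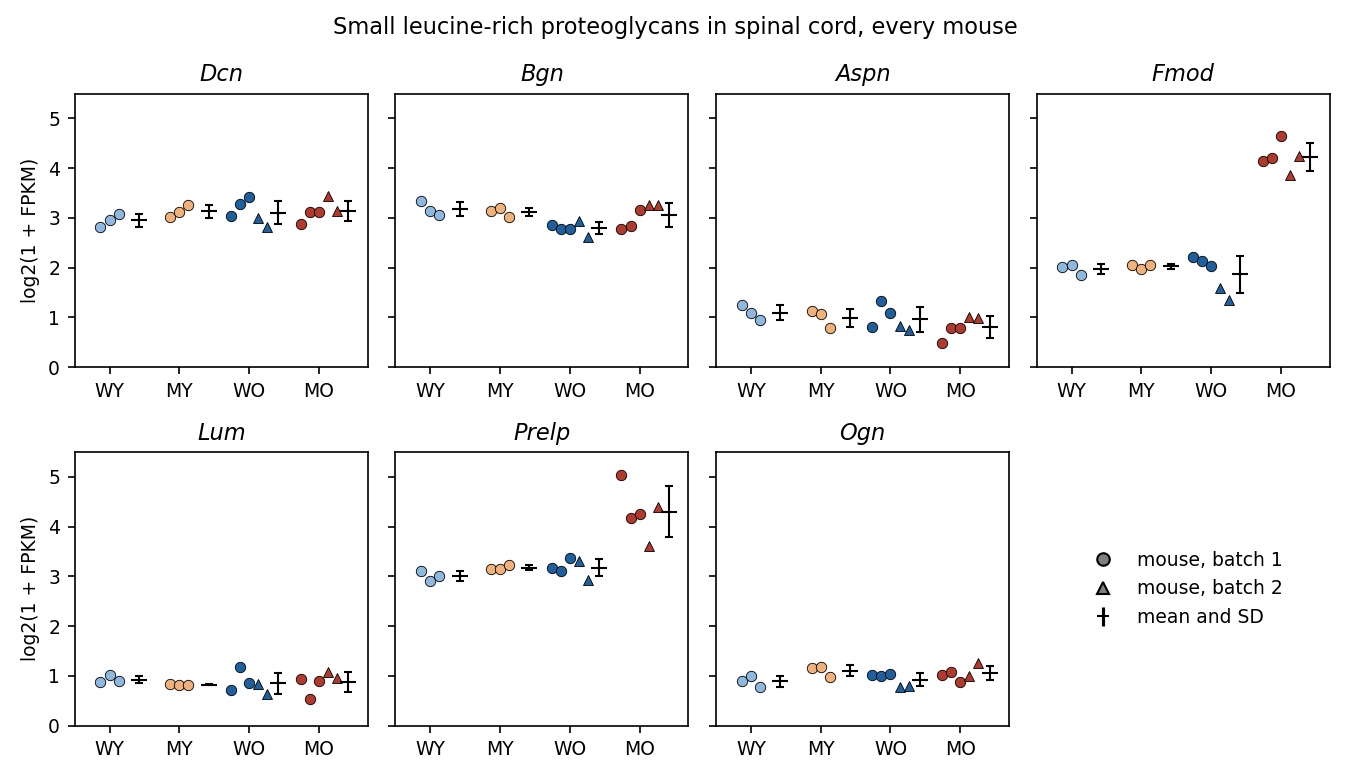
Log2(1 + FPKM) of the 7 members in every mouse of the 4 groups, with circles for batch 1, triangles for batch 2, and the group mean with its SD beside the points. Fmod and Prelp are higher in every MO mouse than in any other mouse, while the MO range of each other member overlaps the range of at least 1 other group.

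Fibromodulin is a keratan sulfate proteoglycan that binds type I collagen and regulates fibril assembly. Its level was 4.15, 4.21, 4.65, 3.86 and 4.24 in MO1 to MO5. In the MY mice it was 2.06, 1.98 and 2.05, in the WY mice 2.01, 2.05 and 1.86, and in WO1 to WO5 it was 2.21, 2.14, 2.03, 1.60 and 1.36. The lowest MO value was above the highest value of every other group, and the lowest WO values were those of WO4 and WO5, both of batch 2.

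The log2 fold change of Fmod was 2.19 ± 0.15 (SE) in MY vs. MO (FDR 0.000203) and 2.36 ± 0.18 (SE) in WO vs. MO (FDR 2.16e-05). Without MO5 these values were 2.19 (FDR 0.00069) and 2.35 (FDR 0.000106). Within batches, the MO mean exceeded the WO mean by 2.21 in batch 1 (3 mice per group) and by 2.58 in batch 2 (2 mice per group). Because 1 was added to FPKM before the logarithm, these values understate the ratio of a gene of low level. After back-transformation the mean FPKM of Fmod was 18.0 ± 3.84 (SD, n = 5) in MO, 2.74 ± 0.897 (SD, n = 5) in WO, 3.08 ± 0.132 (SD, n = 3) in MY and 2.93 ± 0.273 (SD, n = 3) in WY, so the MO mean was 6.56 times the WO mean and 5.83 times the MY mean. By log2 fold change, Fmod ranked 42 among the 742 genes called with a rise in WO vs. MO and 45 among the 747 in MY vs. MO.

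PRELP, the proline and arginine-rich end leucine-rich repeat protein, binds heparan sulfate through a basic amino-terminal region and anchors basement membranes to the underlying matrix. Its level was 5.04, 4.17, 4.26, 3.61 and 4.40 in MO1 to MO5. It was 3.14, 3.15 and 3.23 in the MY mice, 3.10, 2.92 and 3.00 in the WY mice, and 3.16, 3.10, 3.36, 3.31 and 2.93 in WO1 to WO5. Every MO value was above every value of the other groups, but the MO mice were spread widely, with MO1 highest and MO4 lowest (SD 0.51 in MO and 0.17 in WO, n = 5 each).

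The log2 fold change of Prelp was 1.12 ± 0.26 (SE) in MY vs. MO (FDR 0.0150) and 1.12 ± 0.21 (SE) in WO vs. MO (FDR 0.00296). Without MO5 it was 1.10 (FDR 0.0320) and 1.09 (FDR 0.00839). The within-batch difference between MO and WO was 1.28 in batch 1 and 0.88 in batch 2. The call in MY vs. MO rested on all 3 MY mice, since the FDR rose to 0.0591 without MY1, 0.0532 without MY2 and 0.0516 without MY3, while the log2 fold change stayed between 1.11 and 1.15. On the FPKM scale the mean was 19.7 ± 7.60 (SD, n = 5) in MO and 8.09 ± 1.07 (SD, n = 5) in WO. Prelp ranked 283 among the 742 genes called with a rise in WO vs. MO and 271 among the 747 in MY vs. MO.

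Lumican, which like fibromodulin carries keratan sulfate and binds fibrillar collagen, was a gene of low level here. Its values ran from 0.54 to 1.07 in MO, 0.63 to 1.19 in WO, 0.82 to 0.84 in MY and 0.87 to 1.01 in WY. MO overlapped each of the other groups, and the log2 fold change in WO vs. MO was 0.03 with a 95% interval from -0.22 to 0.29. Within batches the difference between MO and WO was -0.13 in batch 1 and 0.28 in batch 2, and with quantile normalization the pooled value was -0.05, so its sign depended on the batch and on the scaling.

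Counted over the members, groups did not overlap for 2 of 7 in MY vs. MO and for the same pair, Fmod and Prelp, in WO vs. MO. Over all genes, the MO values lay wholly above those of MY for 15.7% and wholly above those of WO for 11.3%.

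Decorin and biglycan carry chondroitin or dermatan sulfate chains, decorin as a ligand of collagen fibrils and TGF-beta, and biglycan as a ligand of collagen and of Toll-like receptors once released. Dcn ran from 2.87 to 3.44 in MO, 2.82 to 3.41 in WO, 3.01 to 3.26 in MY and 2.82 to 3.08 in WY. All 4 groups overlapped, with a log2 fold change in WO vs. MO of 0.03 and a 95% interval from -0.25 to 0.30. The within-batch difference was -0.21 in batch 1 and 0.38 in batch 2, and the pooled value turned to -0.001034 with quantile normalization.

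Bgn had the clearest difference among the uncalled members, with a lower level in the WO mice. Its values were 2.85, 2.77, 2.78, 2.94 and 2.61 in WO1 to WO5, and 3.33, 3.14 and 3.06 in the WY mice. Every WO value was below every WY value, with a log2 fold change in WY vs. WO of -0.39 ± 0.08 (SE, FDR 0.0805), so Bgn missed both thresholds. The MO mice had 2.78, 2.83, 3.17, 3.26 and 3.27, which overlapped the WO mice, and the log2 fold change in WO vs. MO was 0.27 ± 0.11 (SE, FDR 0.0857). That difference was 0.13 in batch 1 and 0.49 in batch 2, and it was 0.22 (FDR 0.175) without MO5.

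Asporin, which binds collagen and TGF-beta but lacks the glycosaminoglycan chains of decorin and biglycan, ran from 0.48 to 1.01 in MO, 0.74 to 1.34 in WO, 0.79 to 1.13 in MY and 0.96 to 1.25 in WY. The groups overlapped in every comparison. In WO vs. MO the log2 fold change was -0.15 with a 95% interval from -0.44 to 0.14, and within batches the difference was -0.40 in batch 1 and 0.22 in batch 2.

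Osteoglycin, also called mimecan, is a keratan sulfate proteoglycan of bone and connective tissue. Ogn ran from 0.89 to 1.26 in MO, 0.78 to 1.04 in WO, 0.98 to 1.18 in MY and 0.77 to 1.00 in WY, so the groups overlapped in every comparison. The log2 fold change in WO vs. MO was 0.13 ± 0.08 (SE, FDR 0.265), with a difference of -0.02 in batch 1 and 0.35 in batch 2. For Dcn, Lum, Aspn and Ogn the sign of the difference between MO and WO thus depended on the batch, whereas for Fmod, Prelp and Bgn it was positive in both.

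**Figure D2:**
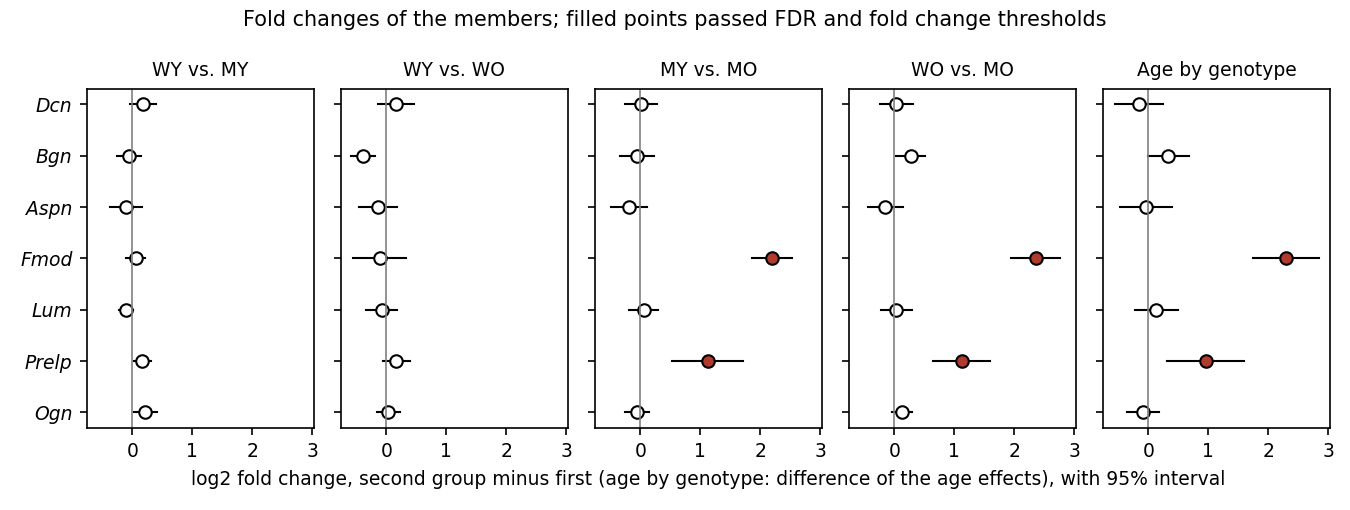
Log2 fold change of each member with its 95% interval in the 4 pairwise comparisons, as the group named last minus the other, and the difference of the age effects between genotypes, with filled points where FDR 0.05 and a fold change of 1.5 were passed. Only Fmod and Prelp have filled points, in MY vs. MO, WO vs. MO and the age by genotype contrast.

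The comparison of WY with MY asked whether genotype altered the members before symptoms. In limma, 0 of 7 members were called in WY vs. MY, beside 0.0055% of all genes, which was 1 gene. An unadjusted p under 0.05 was found for 2 of 7 members and for 1301 of the 18167 genes. The pair was Prelp, with a log2 fold change of 0.17 ± 0.06 (SE, FDR 0.666), and Ogn, with 0.22 ± 0.08 (SE, FDR 0.667). The MY values of Prelp lay above all WY values, as was true of 6.15% of all genes, and those of Lum lay below all WY values, as was true of 7.52%. Fmod differed by 0.06 ± 0.06 (SE, FDR 0.809) between the young groups, with a 95% interval from -0.10 to 0.21.

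Age alone, compared between WY and WO mice, gave no call either. In limma, 0 of 7 members were called in WY vs. WO, beside 0.253% of all genes, and an unadjusted p under 0.05 was found for 1 of 7 members, Bgn, and for 2447 of all genes. Bgn was also the only member whose groups did not overlap in WY vs. WO, a pattern that 5.86% of all genes had with WO lower. Fmod differed by -0.11 ± 0.19 (SE) and Prelp by 0.17 ± 0.10 (SE) between WY and WO. Every WY mouse is of batch 1, and within that batch the sign for Fmod turned, with 0.15, as it did without WO5 (0.02), while Prelp had 0.20.

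The difference of the age effects, MO minus MY less WO minus WY, was called for 2 of 7 members, beside 5.61% of all genes in either direction and 4.65% with a rise. It was 2.30 ± 0.26 (SE, FDR 6.51e-05) for Fmod and 0.95 ± 0.30 (SE, FDR 0.0392) for Prelp. Without MO5 the value for Fmod was 2.30 (FDR 0.000154), and the value for Prelp was 0.93 with an FDR of 0.0590, which ended its call. The call for Prelp also ended without MO3 (FDR 0.0568), MY1 (0.0852), MY2 (0.0779), MY3 (0.0710), WO1 (0.0537), WO2 (0.0596), WO5 (0.0676), WY1 (0.0923) or WY3 (0.0701). It further ended without both WO4 and WO5 (FDR 0.0920), an alternative chosen after seeing the data. For the other members the contrast ran from -0.15 for Dcn to 0.33 for Bgn.

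The order of the levels, which FPKM allows since it is per length, changed in MO through Fmod and Prelp. In WY, MY and WO mice, Prelp, Dcn and Bgn were highest, with group means between 2.79 and 3.18, and neighbours among these 3 overlapped in range. Fmod followed, with a mean of 1.97 in WY, 2.03 in MY and 1.87 in WO, apart from the genes above and below it. Aspn, Ogn and Lum were lowest, with means between 0.82 and 1.11, and neighbours in each group's own order of means overlapped in range. In MO, Prelp (4.30) and Fmod (4.22) led and overlapped with each other, the lowest Fmod value was above the highest Dcn value, and Dcn (3.14) and Bgn (3.06) overlapped. As a share of the summed FPKM of the 7 members, Fmod made up 26.6% to 40.0% in the MO mice, against 7.33% to 13.2% in WO, 9.87% to 10.9% in MY and 9.73% to 11.5% in WY.

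Among all genes, the mean of Prelp over the 16 mice exceeded that of 61.4% of genes, Dcn 54.2%, Bgn 52.9%, Fmod 47.2%, Ogn 25.4%, Aspn 24.8% and Lum 23.8%. The members thus spanned the middle and the lower part of the table. The SD within groups was 0.32 for Prelp and 0.27 for Fmod, above that of 98.0% and 96.6% of genes, and 0.13 to 0.21 for the others.

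Once group means were subtracted, the members varied together to differing degrees from mouse to mouse. Over the 21 pairs of members, Pearson's r of the deviations in 16 mice ran from -0.414 (Prelp with Dcn) to 0.563 (Bgn with Aspn), with a median of 0.211, and 17 pairs were above 0. Aspn had the 4 highest values, also with Lum (0.554), Ogn (0.545) and Dcn (0.527). Fmod and Prelp had an r of 0.267. These values describe 16 libraries of 4 groups and are given without a test. Batch was not subtracted. From batch 1 to batch 2, Dcn, Lum, Aspn and Ogn were lower in WO and higher in MO. For Aspn the means were 1.08 and 0.78 in WO and 0.68 and 1.00 in MO. The values of r thus include any shift that mice of a batch share, also in the comparison with other genes below.

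Each member was also compared with the other genes whose mean was at least 1, 13529 of them for Fmod, Prelp, Dcn and Bgn and 13530 for the rest. Those whose deviations were most like Fmod were Ctsh (r = 0.902), Capg (0.895) and Axl (0.889). For Prelp they were Boc (0.914), Smad1 (0.913) and Gpx3 (0.913), and for Dcn they were Dnajc15 (0.911), Polr3k (0.876) and Prkar2b (0.874). Bgn was most like Gareml (0.905), Pop1 (0.857) and Mfge8 (0.853), and Lum most like Usp37 (0.865), Malat1 (0.857) and Egr3 (0.834). Aspn was most like Ttc32 (0.851), Dpm1 (0.847) and Nes (0.845), and Ogn most like Zfp708 (0.876), Mief1 (0.814) and Fam19a2 (0.807). The highest r among so many genes, over 16 mice, can be large through this selection alone, and none of these values was tested.

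Several members lie in clusters of related genes, and both called members lie in the cluster on chromosome 1. In GENCODE M21 (GRCm38), Prelp is at chr1:133910304-133921414 on the minus strand and Fmod at chr1:134037254-134048277 on the plus strand, 115840 bases apart. Optc, which encodes opticin of the same family, lies 2305 bases from Prelp, and it had a mean of 0.77 in WO and 0.73 in MO (log2 fold change -0.04, FDR 0.722). Btg2, on the other side of Fmod, had a log2 fold change of 0.48 (FDR 0.0874) in WO vs. MO. Chit1, beyond it, had 0.01 (FDR 0.897), and Atp2b4, beyond Optc, had 0.12 (FDR 0.295). Among the measured neighbours of Fmod and Prelp, each other was therefore the only one called.

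**Figure D3:**
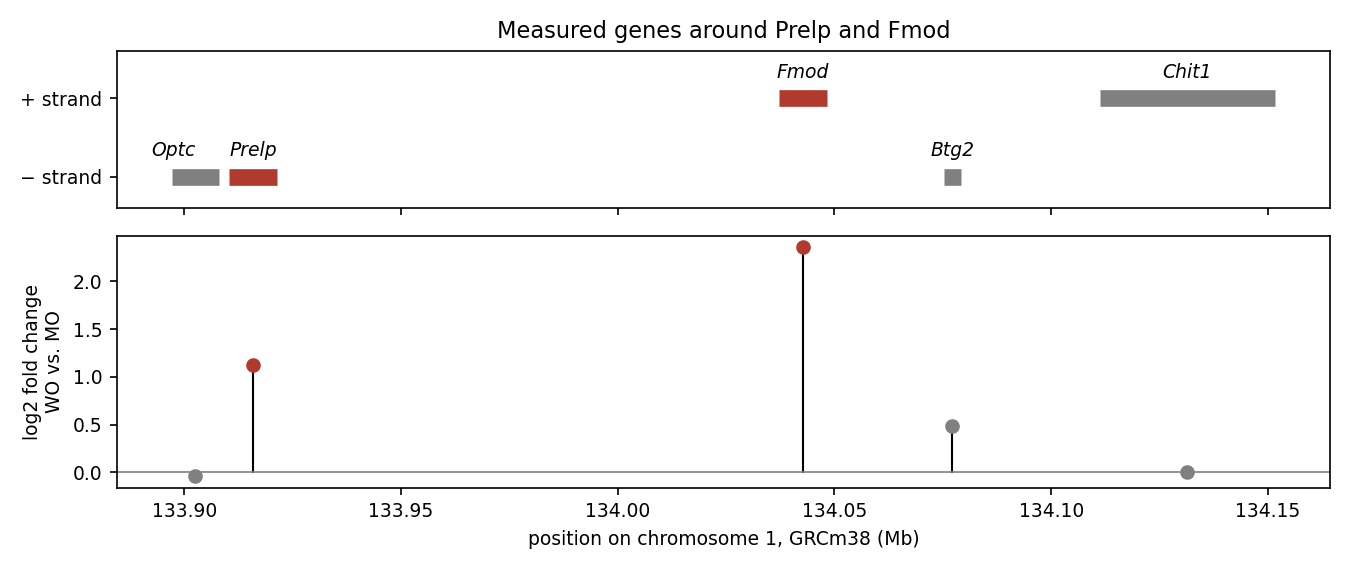
Measured genes from Optc to Chit1 on chromosome 1 (GRCm38, position in Mb), drawn to scale by strand, above the log2 fold change of each in WO vs. MO. Prelp (1.12) and Fmod (2.36) stand above Optc (-0.04), Btg2 (0.48) and Chit1 (0.01).

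The uncalled members lie elsewhere. Dcn (chr10:97479609-97518143) and Lum (chr10:97565128-97572703) are 46985 bases apart on the plus strand of chromosome 10, and their measured neighbours Eea1, Btg1, Epyc and Gm10754 were not called in MY vs. MO or WO vs. MO. Aspn (chr13:49544443-49567565) and Ogn (chr13:49608046-49624501) lie on the plus strand of chromosome 13 beside Ecm2 and Omd. Both lie within Cenpp, a gene of the opposite strand, and since the strand setting of the quantification is not given in the sources used here, reads of Cenpp cannot be told apart from theirs. Cenpp, Ecm2, Omd, Nol8 and Iars, the measured neighbours of Aspn and Ogn, were not called in either comparison. Bgn (chrX:73483602-73495933) is on the plus strand of chromosome X, and its neighbours Zfp92, Haus7, Atp2b3 and Dusp9 were not called either. Part of Prelp, over 4519 bases, is overlapped by the antisense gene Gm15851, to which the same limit applies.

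Because Fmod and Prelp both rose, their promoters are shown, with that of Bgn, an uncalled member, for comparison. Promoters of 5 of 7 members, all but Lum and Dcn, were in the set of RefSeq promoters (GRCm38.p6) used here, as 300 bases from 250 before to 50 after the annotated start, 5′ to 3′ on the strand of the gene. They were searched on both strands for TATAAA (the TATA box), TGANTCA (as bound by AP-1), GGGCGG (the GC box), TTCNNNGAA (as bound by STAT factors) and TGTGGT (as bound by Runx factors), where N is any base and overlapping matches count separately, and matches are in capitals.
Fmod, chr1:134037004-134037303, plus strand: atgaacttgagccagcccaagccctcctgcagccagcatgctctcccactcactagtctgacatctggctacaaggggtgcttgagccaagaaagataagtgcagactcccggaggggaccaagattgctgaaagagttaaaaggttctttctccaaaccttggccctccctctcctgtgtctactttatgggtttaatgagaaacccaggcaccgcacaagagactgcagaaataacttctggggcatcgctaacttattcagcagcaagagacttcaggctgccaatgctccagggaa
Prelp, chr1:133921352-133921651, minus strand: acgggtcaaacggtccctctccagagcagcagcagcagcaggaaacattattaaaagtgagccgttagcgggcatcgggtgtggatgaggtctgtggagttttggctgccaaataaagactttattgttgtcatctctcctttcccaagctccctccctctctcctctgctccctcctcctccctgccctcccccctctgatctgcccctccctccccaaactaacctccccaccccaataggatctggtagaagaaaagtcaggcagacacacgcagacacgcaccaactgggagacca
Bgn, chrX:73483351-73483650, plus strand: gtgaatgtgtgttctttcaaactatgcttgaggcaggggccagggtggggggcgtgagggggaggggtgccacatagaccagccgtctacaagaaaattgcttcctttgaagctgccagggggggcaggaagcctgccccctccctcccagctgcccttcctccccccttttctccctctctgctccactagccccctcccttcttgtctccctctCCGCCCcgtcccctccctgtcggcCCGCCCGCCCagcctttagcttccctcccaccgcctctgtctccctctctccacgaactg

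None of these motifs was found in the windows of Fmod and Prelp, as was the case for 34.5% of 32851 promoters. The Bgn window held 3 matches to GGGCGG, a motif present in 35.7% of all promoters. The Aspn and Ogn windows each held 2 matches to TATAAA, which 13.6% of promoters hold, and Ogn also held 1 match to TGTGGT, which 16.8% hold. The matches to TATAAA lay toward the upstream end of each window, away from the annotated start, and the 2 in Ogn overlapped on opposite strands. TGANTCA and TTCNNNGAA, held by 7.81% and 8.30% of promoters, were in no member's window. The share of G and C was 51.0% for Fmod, 55.3% for Prelp, 63.7% for Bgn, 31.0% for Aspn and 42.3% for Ogn, against a median of 52.7% over all promoters.

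Of 11 further genes of the family, 10 were measured, all but Kera, and in limma 0 of these 10 were called in any of the 4 pairwise comparisons. An unadjusted p under 0.05 was found for 3 of 10 in MY vs. MO, 3 of 10 in WO vs. MO, 3 of 10 in WY vs. WO and 2 of 10 in WY vs. MY, beside 6673, 6986, 2447 and 1301 of the 18167 genes. Their median log2 fold change in WO vs. MO was -0.02, against 0.13 for the 7 members and 0.00 over all genes. Log2 fold changes in WO vs. MO were 0.56 for Tsku (FDR 0.00259, below the fold threshold), 0.26 for Ecm2 (FDR 0.0661), 0.20 for Podn (FDR 0.0164, also below it), 0.10 for Omd, -0.02 for Chad, -0.03 for Nyx, -0.03 for Podnl1, -0.04 for Optc, -0.06 for Chadl and -0.11 for Epyc. Tsku, which encodes tsukushi, a secreted regulator of several growth factors, was the 1 gene of this list called in the age by genotype contrast, with 0.64 ± 0.16 (SE, FDR 0.0151). That call ended with quantile normalization (0.53) and without MO3 (0.56) or MY1 (0.53), and under treat, limma's test against a fold change of 1.2 (FDR 0.304).

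Fibrillar collagens are the main ligands of the members, and most were not called. Of 23 collagens and matrix partners, 0 fell. In MY vs. MO 3 rose, beside 4.11% of all genes, and in WO vs. MO 4 rose, beside 4.08% of all genes. The 4 were Col5a3, a chain of type V collagen (1.11 ± 0.18, SE), fibronectin Fn1 (0.76 ± 0.22), Lox, the lysyl oxidase that cross-links collagen (0.72 ± 0.11), and Col12a1, a collagen on the surface of fibrils (0.68 ± 0.05), given as log2 fold changes in WO vs. MO. The call of Fn1 ended within batch 1 (0.39, FDR 0.138), without both WO4 and WO5 (0.40, FDR 0.0972), and without MO2 (FDR 0.0584), MO3 (0.0649), MO5 (0.0624), WO4 (0.0572) or WO5 (0.0661). It also ended under treat (FDR 0.331). Col1a1 and Col1a2, the chains of type I collagen that fibromodulin binds, had log2 fold changes of 0.02 (FDR 0.773) and 0.05 (FDR 0.659), and Col3a1 had -0.11 (FDR 0.433). The median over the list was 0.08 in WO vs. MO and 0.11 in MY vs. MO, against 0.00 for all genes in both.

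Genes for the synthesis of the members' sugar chains were mostly not called. Of 27 measured genes of 28 listed, 1 was called in MY vs. MO and 1 in WO vs. MO, in each case B4galt1, a galactosyltransferase, with a log2 fold change of 0.95 ± 0.13 (SE, FDR 0.000387) in WO vs. MO. The shares of all genes called in these comparisons were 4.9% and 4.6%. The median over the list was 0.01 in WO vs. MO.

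Proteases and inhibitors of the matrix, several of which cleave members of the family, were mostly not called. Of 20 genes, 5 rose, 2 fell and 13 were not called in MY vs. MO, and 5 rose, 1 fell and 14 were not called in WO vs. MO. Among all genes, 4.9% and 4.6% were called in either direction in these comparisons. In WO vs. MO the log2 fold change was 3.67 ± 0.24 (SE) for Timp1, an inhibitor of matrix metalloproteinases, 1.67 ± 0.25 for Mmp12, 1.26 ± 0.10 for Mmp19 and -0.70 ± 0.07 for Mmp9. Mmp12 was near the floor in WO, at 0.10 to 0.12 in WO1 to WO3, and below 0 in WO4 (-0.23) and WO5 (-0.24) after the batch correction.

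Receptors and growth factors that members of the family bind also held called genes. Of 23 measured genes of 24 listed, 7 rose in MY vs. MO and 7 rose in WO vs. MO, and 0 fell. The shares of all genes called with a rise were 4.11% and 4.08%. The log2 fold changes in WO vs. MO were 1.85 ± 0.12 (SE) for Tlr2, a receptor for biglycan, 1.84 ± 0.13 for its co-receptor Cd14, 1.64 ± 0.10 for the hyaluronan receptor Cd44 and 1.10 ± 0.10 for Tgfbr1, a receptor of TGF-beta. In WY vs. WO 2 genes of this list fell, Cd44 with -0.67 and Bmp4 with -0.62. Neither call held without WO1 (FDR 0.0516 for Cd44 and 0.0943 for Bmp4), WO2 (0.0699 and 0.107), WO5 (0.0533 and 0.0958), WY1 (0.0821 and 0.124), WY2 (0.0745 and 0.0853) or WY3 (0.106 and 0.133), nor did that of Bmp4 without WO3 (0.0937) or that of Cd44 within batch 1 (0.0587).

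Complement genes were listed because fibromodulin, biglycan and PRELP bind some complement proteins, and most of those measured were called. Among all genes, 4.11% were called with a rise in MY vs. MO, 4.08% in WO vs. MO and 4.65% in the age by genotype contrast. Of 6 measured genes of 7 listed, 6 rose in MY vs. MO, 6 in WO vs. MO and 5 in the age by genotype contrast, with a median of 2.30 in WO vs. MO. The log2 fold changes there were 2.82 ± 0.21 (SE) for C1qa, 2.60 ± 0.21 for C1qc, 2.59 ± 0.21 for C1qb and 2.00 ± 0.21 for C4b. Fmod, with 2.36, lay within the range of these 4, and Prelp, with 1.12, below it.

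Cell type markers were set beside Fmod and Prelp, and the part of each cell type in their rise was not tested. Among all genes, 4.6% were called in WO vs. MO. Of 17 measured markers of meningeal and perivascular fibroblasts, of 18 listed, 1 was called in WO vs. MO, Igfbp2 (1.19 ± 0.17, SE), which is also the most abundant of them and made up 69.8% of their summed FPKM. The sum was 33.6, 43.1, 55.4, 43.1 and 50.4 in MO1 to MO5 and 19.6 to 28.4 in WO, whereas the transporter Slc6a13 had a mean of 0.89 in MO and 0.83 in WO, another, Slc22a8, had 1.47 in MO and 2.03 in WO (log2 fold change -0.57, FDR 0.0169, below the fold threshold), and 11 of the 17 had a mean below 0.5. Of the 17, 14 had a positive log2 fold change in WO vs. MO, with a median of 0.04. Fmod was highest in MO3, as was this sum, but Prelp was highest in MO1, where the sum was the lowest of the MO mice. Single markers of the list peaked in different MO mice. Igfbp2, which led the sum, was highest in MO3 (5.53) and Igf2 in MO4 (2.13), whereas Dpep1 (0.51), Crabp2 (0.69) and Slc47a1 (0.22) were highest in MO1.

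Of 9 markers of pericytes and smooth muscle, 1 was called in WO vs. MO, Tagln (1.75 ± 0.16, SE), but only 3 of 9 had a positive log2 fold change, and the median was -0.11. Below the fold threshold were Rgs5 (-0.58, FDR 0.0135), Abcc9 (-0.31, FDR 0.0053) and Myh11 (-0.28, FDR 0.00178). The sum over the list, of which Vtn gave 31.5% over all mice, was 55.9 to 85.0 in MO and 56.7 to 78.4 in WO. Of 6 Schwann cell markers, Egr2 was called (0.82 ± 0.08, SE), with sums of 74.7 to 109 in MO and 82.9 to 88.8 in WO, mostly from Pmp22, while Prx, which encodes periaxin, was low, with means of 0.23 in MO and 0.16 in WO. Of 6 bone and cartilage markers, 4 had a positive log2 fold change, with a median of 0.09, and Acan was called with a fall (-0.60 ± 0.05, SE, but -0.57 without MO1 and -0.58 without WO5, below the fold threshold). The sums over this list, of which Acan gave 67.0% over all mice, were 3.62 to 4.68 in MO and 5.16 to 5.82 in WO. Ibsp was near 0, with means of 0.13 in MO and 0.09 in WO. Matn1 was 1.34 in MO1, where Prelp was highest, and 0.25 to 0.49 in the other MO mice. The 6 skeletal muscle markers, led by Mylpf, summed to 1.56 to 3.17 in MO and 2.86 to 3.55 in WO, with 0 called in limma and 2 at an unadjusted p under 0.05. The 4 measured blood markers of 5 listed, led by Hba-a1, summed to 11.7 in MO1, where Prelp was highest, to 43.3 to 64.4 in the other MO mice and to 61.1 to 96.8 in WO, with 0 called and 1 at that unadjusted p, and the 4 measured sensory neuron markers of 5 listed, led by Prph, to 45.3 to 62.0 and 50.1 to 67.5, with 0 called and 1 at that unadjusted p. The last was Avil, which was 0.45 to 0.75 in MO and 0.12 to 0.37 in WO (log2 fold change 0.36, FDR 0.00239, below the fold threshold).

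Some markers of astrocytes and microglia rose in the mice in which Fmod and Prelp did. Of 6 astrocyte markers 3 were called in WO vs. MO, Gfap (1.60 ± 0.10, SE), Aqp4 (0.83 ± 0.11) and Aldh1l1 (0.69 ± 0.09), and their sum, mostly Gfap, was 2705, 3490, 3134, 2587 and 2775 in MO1 to MO5 and 1149 to 1383 in WO. Of 5 microglia markers 3 were called, Aif1 (1.75 ± 0.23, SE), Csf1r (1.28 ± 0.09) and Cx3cr1 (1.14 ± 0.12). Of the uncalled markers, P2ry12 had a mean of 4.00 in MO and 3.90 in WO, and Tmem119 4.01 in MO and 3.52 in WO. The microglia sum, led by Csf1r, was 133.8, 164.1, 168.6, 133.8 and 136.9 in MO1 to MO5 and 60.0 to 75.5 in WO. Fmod and this sum were both highest in MO3, but Prelp was highest in MO1, where this sum was among the lowest of the MO mice, and the astrocyte sum was highest in MO2. Of the astrocyte markers, Aldh1l1 (5.63), Slc1a3 (6.01) and Slc1a2 (8.12) were highest in MO1 among the MO mice, and Gfap, Aqp4 and Gja1 in MO2. Aqp4 overlapped between MO (7.40 to 7.88) and WY (7.43 to 7.63). In MY vs. MO 2 of 6 astrocyte markers and 4 of 5 microglia markers were called, beside 4.9% of all genes. The log2 fold change of Aqp4 in WY vs. WO was -0.65, a call that ended under 10 of 18 alternatives.

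Markers of the remaining cell types fell or were not called. Of 5 oligodendrocyte markers 0 were called in WO vs. MO in limma, with 2 at an unadjusted p under 0.05, and 1 fell in MY vs. MO, Mog (-0.93 ± 0.20, SE), a call that ended under treat (FDR 0.106). The sum over the list, mostly Mbp, differed by batch, with 5533 to 5844 in MO1 to MO3 and 6636 to 7441 in WO1 to WO3, all of batch 1, against 19050 in MO4, 19400 in MO5 and 20340 in WO5 of batch 2. WO4, also of batch 2, stood apart with 1352, and its Mbp value was 5.36, against 12.42 to 14.22 in the other WO mice. Of 5 neuron markers Nefl was called with a fall (-0.75 ± 0.10, SE), with a sum, led by Snap25, of 2152 to 2597 in MO and 3052 to 3446 in WO. Of 5 motor neuron markers Chat was called with a fall (-0.67 ± 0.06, SE), with a sum, led by Slc5a7, of 42.5 to 53.7 in MO and 69.8 to 81.5 in WO. That sum was 62.3 to 68.0 in MY and 43.9 to 65.6 in WY, where the lowest value was that of WY1. In limma, 0 of 5 motor neuron markers were called in MY vs. MO, with 4 at an unadjusted p under 0.05 and 0 with a positive log2 fold change. In the age by genotype contrast 3 of the 5 were called with a fall, beside 0.963% of all genes. The 5 endothelial markers, led by Ly6c1, summed to 66.4 to 92.4 in MO and 75.5 to 133 in WO, with 0 called in limma and 4 at an unadjusted p under 0.05.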

How the data were processed

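Per the labels and the study's methods, the authors sequenced stranded mRNA libraries, and the steps were trimming (Trimmomatic), alignment to mm10 (TopHat) and quantification (Cufflinks). They deposited log2 values of 1 + FPKM for 18167 genes, after leaving out genes at 0 in at least 8 mice and correcting for batch with ComBat, whose covariates are not given in the sources used here. Of the 290672 values 915 were below 0. Counts were not used here.

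Each pair of groups was fitted in limma 3.58.1 (R 4.3.3) on its own mice without covariates, with Benjamini-Hochberg FDR over all genes, and the age by genotype contrast on all 16 mice. Intervals are 95% and come from limma. Alternatives were batch 1 alone, batch as a term, 1 fit of all groups, a mean of at least 1, a pseudocount of 0.1, quantile normalization, an intensity trend, treat at a fold change of 1.2, blocking by replicate number, each mouse left out, and, chosen after seeing the data, the oldest WO mice left out.

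The members and all lists were chosen with earlier results of these data known, and a few planned markers are not reported here. Named genes were the members, the further family genes, up to 4 genes of each other list called in MY vs. MO or WO vs. MO, by size of log2 fold change in the latter, the 3 genes most like each member, and the nearest measured genes on each side. Col1a1, Col1a2, Col3a1, the receptors and ligands named in WY vs. WO, and the markers named without a call were chosen after their values were seen. Coordinates are from GENCODE M21 (GRCm38, the assembly of mm10) and promoters from RefSeq (GRCm38.p6). Python 3.11.15 with pandas 2.3.3 and matplotlib 3.10.9 served for summaries and figures.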

Additional observations from a re-analysis of the deposited data

Results flagged for a closer look

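Fmod and Prelp were flagged because their age effect differed between genotypes. The age effect on Fmod was larger in hPFN1 G118V mice than in wild-type hPFN1 mice by 2.30 on the log2 scale (FDR 6.51e-05 in limma), with MO above every other mouse in 5 of 5 MO mice. The corresponding value for Prelp was 0.95 (FDR 0.0392), with 5 of 5 MO mice above every other mouse. Its call in this contrast ended under treat (FDR 0.300) and when single mice of each group were left out. The old groups of the genotypes differ in age and the cause was not tested. In the 14 tests of single mice, each member in MO and in WO, no mouse stood apart by Dixon's criterion.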

How the results depend on the processing

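Fmod was called in MY vs. MO, WO vs. MO and the age by genotype contrast under every alternative run, with log2 fold changes of 2.09 to 2.48, 2.10 to 2.71 and 2.04 to 2.64. Prelp was called in WO vs. MO under every alternative, with 0.93 to 1.29 and an FDR of up to 0.0279. In MY vs. MO the number of members called fell from 2 to 1, through Prelp, under treat at a fold change of 1.2 (FDR 0.104), and it was 1 to 2 when each mouse was left out. In the contrast it fell to 1, again through Prelp, under treat (FDR 0.300) and, chosen after seeing the data, without the oldest WO mice (FDR 0.0920), and it was 1 to 2 when each mouse was left out. Over its alternatives the FDR of Prelp ran from 0.00133 to 0.104 in MY vs. MO and from 0.0038 to 0.300 in the contrast. Treat tests against a fold change of 1.2 in place of 1 and replaces the fold threshold of 1.5, and leaving mice out leaves fewer samples. No other cause was tested. No other member was called under any alternative, and in limma WY vs. WO and WY vs. MY kept 0 members called (0 to 4 and 0 to 2 at an unadjusted p under 0.05). Lum, Aspn and Ogn could not be fitted with the filter at a mean of 1, which leaves them out. Over all genes, a pseudocount of 0.1 raised the calls from 890 to 1483 in MY vs. MO, from 836 to 1529 in WO vs. MO and from 1020 to 1548 in the contrast, and treat lowered the last to 608. In WY vs. WO the 46 calls became 73 in batch 1 alone and without the oldest WO mice, 80 with batch as a term, 3 under treat, 26 without WO2, 27 without WO3, 23 without WY1, 30 without WY2 and 7 without WY3. In WY vs. MY the 1 call became 4 with all groups in 1 fit, 2 with the filter, 2 with an intensity trend, 2 without MY1, 3 without MY2, 5 without WY1, 3 without WY2 and 4 without WY3. Alternatives were run on up to 4 called genes of each list. Of 29 such genes in WO vs. MO, 2 lost the call under some alternative (Fn1 and Acan), as did 3 of 26 in MY vs. MO (Mog, Lox and Aldh1l1), 4 of 5 in WY vs. WO and 2 of 29 in the contrast, and 0 turned direction. Same-numbered mice varied together only weakly (r from -0.207 to 0.377 over 14 pairs, and 6 of 14 matched their own number best, 3 of 3 in MY vs. MO, 1 of 5 in WO vs. MO, 2 of 3 in WY vs. WO and 0 of 3 in WY vs. MY). With the replicate block 2 members were called in MY vs. MO, 2 in WO vs. MO, 0 in WY vs. WO, 0 in WY vs. MY and 2 in the contrast, and all genes called were 1108, 840, 63, 1 and 1008. In MY vs. MO the block also takes MO4 and MO5, which have no MY partner, out of the estimate, and batch 1 alone gave 1099 calls. It likewise takes WO4 and WO5, which have no WY partner, out of the estimate in WY vs. WO. There Cd44 (FDR 0.110), Bmp4 (0.108) and Aqp4 (0.0517) lost their calls, and Fmod turned from -0.11 to 0.15, the value without the oldest WO mice. Depth per gene is unknown.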
